A study of Homo sapiens with 2 samples.

Results

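MORF4L1, MORF4L2 and MRFAP1 encode a pair of paralogous chromatin proteins and a small protein that binds them, and their transcripts were read for C-to-U edits in 2 long-read libraries of human HEK293T cells. Sequenced loci were assigned to annotated genes by the largest overlap of exons on the same strand, and the 3 loci that received these symbols were kept out of 12178 loci listed in either library, of which 8203 were listed in both. MORF4L2 was chosen by its measured values, the surplus of edited positions in the RBFOX2 library over the enzyme-only library, and MORF4L1 and MRFAP1 joined it as its paralogue and their known partner. The numbers of sites per library are therefore given as a description, and no test was made on them.

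HEK293T is an established human embryonic kidney line (the labels give the line as HEK293XT and use HEK293T in the titles). Cells of both groups were methanol-fixed and then received recombinant APOBEC1, a cytidine deaminase, joined to a nanobody against rabbit IgG. In the RBFOX2 group a rabbit antibody against RBFOX2, a splicing regulator that binds UGCAUG, was bound first, so that the fusion was held at RBFOX2. The enzyme-only group received the fusion without that antibody and measures background editing. Each group had 1 library, so every comparison is between these 2 libraries and none has a replicate check. Intervals are exact Clopper-Pearson 95% intervals for counting error only, because the tables carry no molecular identifiers.

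MORF4L1, also called MRG15, reads methylated histone H3 through its chromodomain and joins both the TIP60/NuA4 histone acetyltransferase complex and the SIN3 histone deacetylase complex. MORF4L2, also called MRGX, shares its MRG domain, lacks the chromodomain and enters the same complexes. MRFAP1 is a small protein that binds MORF4 family proteins. It has a close relative, MRFAP1L1, encoded nearby on chromosome 4.

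MORF4L2 (ENSG00000123562.18, hg38 chromosome X, minus strand, 103675496 to 103688158) holds the exonic UGCAUG of the group. That hexamer, written TGCATG in DNA, lies in the coding sequence at X:103676256-103676261, begins 99 nt before the end of the stop codon and is present in all 20 isoform models of the gene. A second copy at X:103684687-103684692 lies in an exon of 6 models. The stretch of MORF4L1 aligned with the coding hexamer differs from it by the substitutions G2T and T5C (the MORF4L2 base first, positions counted from 1 at the 5′ end of the hexamer, then the MORF4L1 base). It is printed here with the cytosines 3′ of the MORF4L2 hexamer that were listed as edited in the RBFOX2 library, because this is where the most edited position of the 3 genes lay. In the first pair capitals mark the hexamer and its counterpart, and in the third sequence they mark listed cytosines.

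MORF4L2 hexamer, chrX:103676247-103676270, minus strand: tgggctattTGCATGatttcctaa

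MORF4L1 counterpart, chr15:78894880-78894903, plus strand: tcaattatcTTCACGatttcctaa

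MORF4L2 cytosines 3′ of the hexamer, chrX:103676211-103676235, minus strand: aagaattCtgCatCtCtCtttactg

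The deposited tables list, for each edited position, the number of converted reads and the number of reads of the whole gene. A position was listed only if its converted reads exceeded 0.2% of the gene's reads, so deeply read genes need more converted reads for a listing. For each gene the smallest number that could be listed in both libraries was therefore required in both. This minimum was 4 converted reads for MORF4L1 and MORF4L2 and 3 for MRFAP1. A position that passes it is called a site.

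MORF4L2 had 30 sites in the RBFOX2 library at 1642 gene reads and 2 sites in the enzyme-only library at 1514 gene reads. Per 1000 gene reads these were 18.3 and 1.32 sites. Relative to the reads of all loci listed in both libraries the log2 ratio of sites was 3.51 (1.83 to 6.92), the second highest of the 23 genes with the same minimum and at least 10 sites. MORF4L2 stood high in the RBFOX2 library and near the floor in the enzyme-only library, with nearly equal reads in both.

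MORF4L1 (ENSG00000185787.15, chromosome 15, plus strand, 78810487 to 78898139) had 28 sites in the RBFOX2 library at 1756 gene reads and 9 in the enzyme-only library at 1440. Per 1000 gene reads these were 15.9 and 6.25 sites. The log2 ratio was 1.48 (0.41 to 2.80), which ranked 8 of the same 23 genes. The reads of this gene were 1.22 times as many in the RBFOX2 library, so the minimum of 4 was 0.228% of its reads there and 0.278% in the enzyme-only library.

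MRFAP1 (ENSG00000179010.16, chromosome 4, plus strand, 6640091 to 6642729) had 25 sites in the RBFOX2 library at 1315 gene reads and 18 in the enzyme-only library at 1281. Per 1000 gene reads these were 19.0 and 14.1 sites, and the log2 ratio of 0.36 (−0.56 to 1.33) had an interval that included 0. It ranked 75 of the 100 genes with a minimum of 3. The minimum was lower for MRFAP1 than for its partners, so the 3 genes were also set side by side at 4 converted reads. MRFAP1 then had 10 and 9 sites with and without the antibody, or 7.60 and 7.03 per 1000 gene reads. At 4 converted reads MORF4L2 and MORF4L1 had the higher densities with the antibody, at 18.3 and 15.9, and without it MORF4L2 had the lowest, at 1.32, beside 6.25 for MORF4L1. With the antibody, 4 reads were 0.304% of the reads of MRFAP1 but 0.244% and 0.228% of those of MORF4L2 and MORF4L1. The minimum of 3 was 0.228% of the reads of MRFAP1, and at it MRFAP1 had the highest density of the 3, at 19.0. The order with the antibody thus depends on the minimum.

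Deeply read genes as a class leaned to the RBFOX2 library, which sets the background for these ratios. Among genes with a minimum of 4 and at least 10 sites, 60.9% had a ratio over 2, MORF4L1 and MORF4L2 among them, and 0% had a ratio under 0.5. Among the 100 genes with a minimum of 3 the shares were 47% and 4%, and MRFAP1 was in neither. Over all 5556 genes with at least 10 sites they were 20.5% and 10.2%. The median log2 ratio was 1.25 in the 23 genes, so MORF4L1 lay close to the median of its depth class. The values of MORF4L2 and MORF4L1 exceed 2-fold in a class where most genes did, and the rule that picked MORF4L2 used this same contrast.

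**Figure D1:**
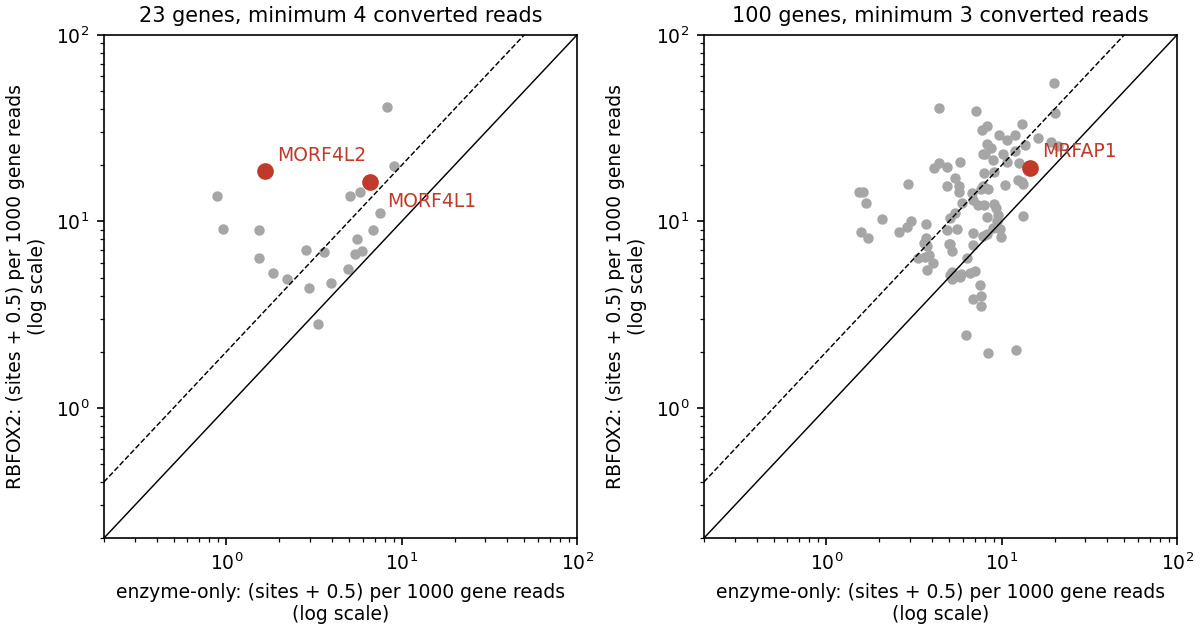
Each point is a gene, with sites per 1000 gene reads (0.5 added to the number of sites) in the enzyme-only library on the horizontal axis and in the RBFOX2 library on the vertical axis, both on log scales, for the 23 genes with a minimum of 4 converted reads (left) and the 100 with a minimum of 3 (right). The solid line marks equal values and the dashed line 2-fold more in the RBFOX2 library: MORF4L2 lies far to the upper left, MORF4L1 just above the dashed line and MRFAP1 between the lines.

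The genes closest to each of the 3 were found by the Euclidean distance in log2 sites per 1000 gene reads over the 2 libraries, among genes with the same minimum. For MORF4L2 these included TXN (15 and 2 sites in the RBFOX2 and enzyme-only libraries), ERH (16 and 1), CCT6A (11 and 2) and SFPQ (12 and 4), at distances of 1.06 to 1.61. MORF4L1 had closer neighbours, SRSF2 (22 and 8 sites) at 0.26, then STMN1, PTGES3, TSPAN3 and FKBP1A up to 0.85. MRFAP1 was closest to YWHAZ (28 and 17 sites) at 0.21, and others near it included CDC42, DDX55 and PSMA1 up to 0.41. The genes named for MORF4L2 lay farther from it than those named for MORF4L1 and MRFAP1 lay from theirs.

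Most positions rested on few converted reads, near the minimum. In the RBFOX2 library the converted reads per site ran from 4 to 15 with a median of 5 in MORF4L2, from 4 to 10 with a median of 5 in MORF4L1 and from 3 to 7 with a median of 3 in MRFAP1. In the enzyme-only library both MORF4L2 sites had 5, the MORF4L1 sites had 4 to 7 with a median of 4, and the MRFAP1 sites had 3 to 7 with a median of 3.5. Exactly at the minimum lay 11 of the RBFOX2 sites of MORF4L2, 10 of those of MORF4L1 and 15 of those of MRFAP1. Just below it, with 3 converted reads, 16 further positions of MORF4L1 were listed in the enzyme-only library, where its lower depth made that possible. No position of MORF4L2 or MRFAP1 could be listed below the minimum in either library. Positions with up to 3 converted reads in MORF4L2 and up to 2 in MRFAP1 are therefore not seen. With those 16 positions MORF4L1 had 25 enzyme-only positions against 28, and its log2 ratio was 0.059. With the minimum set as the same share of gene reads in both libraries (added after the data had been seen), MORF4L1 had 18 and 9 sites and a log2 ratio of 0.86 (−0.33 to 2.24), with an interval that included 0. MORF4L2 had 19 and 2 sites and 2.86 (1.09 to 6.29) under that setting. MRFAP1 had 10 and 18 sites and turned to −0.92 (−2.23 to 0.24), since 3 converted reads then no longer sufficed in the RBFOX2 library.

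Because the minimum moved these values, the converted reads were also summed over all positions listed in either library, taking an unlisted position as anything from 0 to the largest number that is not listed. This too was added after the data had been seen. A molecule with several edits counts several times in these sums, so they are not shares of edited molecules. Counting intervals of their ratios take each conversion as independent. Over 30 positions of MORF4L2 the sum was 190 converted reads in the RBFOX2 library, 116 per 1000 gene reads. In the enzyme-only library it lay between 10 and 94, or 6.61 to 62.1 per 1000. With every unlisted position at its limit the RBFOX2 sum was 1.86-fold higher. All 30 positions were listed in the RBFOX2 library and 28 of them there only, and MORF4L2 was chosen by this surplus, so the ratio is a description and carries no support.

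Over 40 positions of MORF4L1 the sum lay between 157 and 193 in the RBFOX2 library, 89.4 to 110 per 1000 gene reads. In the enzyme-only library it lay between 93 and 123, or 64.6 to 85.4 per 1000. These ranges came close without overlapping, with a ratio of 1.05 to 1.70, and the counting interval at the lowest ratio, 0.82 to 1.34, included 1. For MRFAP1 the ranges over 35 positions overlapped, with 68.4 to 83.7 per 1000 with the antibody and 53.1 to 79.6 per 1000 without it. Among the 518 genes of at least 500 reads per library, the ranges did not overlap in 45.6% with the RBFOX2 library higher, MORF4L1 and MORF4L2 among them, and in 8.11% with the enzyme-only library higher. Over all 5571 genes the shares were 56.5% and 38.1%, but most of those genes have so few reads that an unlisted position can only be 0. Positions entered these sums because they were listed in one of the libraries, so the sums describe the listed positions and not all cytosines.

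**Figure D2:**
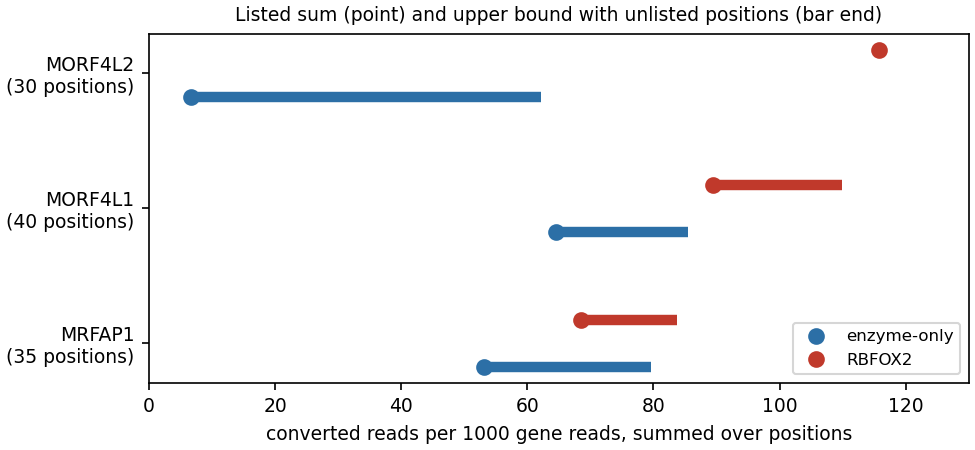
Converted reads per 1000 gene reads (horizontal axis), summed over the positions listed in either library, for each gene and library. Points give the listed reads and bars extend to the value with every unlisted position at its limit: the RBFOX2 point of MORF4L2 at 116 stands beyond the end of its enzyme-only bar at 62.1, the bars of MORF4L1 come close at 85.4 and 89.4, and those of MRFAP1 overlap.

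The libraries shared positions to a different degree in the 3 genes. Of the 30 positions of MORF4L2, 28 were listed only in the RBFOX2 library, 2 in both and 0 only in the enzyme-only library. Of the 40 positions of MORF4L1, 15 were listed only in the RBFOX2 library, 12 only in the enzyme-only library and 13 in both. MRFAP1 had 17, 10 and 8 of its 35. At the 13 shared positions of MORF4L1 the RBFOX2 library had 80 converted reads and the enzyme-only library 52, 45.6 and 36.1 per 1000 gene reads, and the number was higher in the RBFOX2 library at 10 of them, equal at 2 and lower at 1. At 7 of the 10 the enzyme-only library had 3 converted reads, below what could be listed in the RBFOX2 library, so that direction was fixed by the listing. At the other 6 shared positions the RBFOX2 library was higher at 3, equal at 2 and lower at 1, with 36 and 31 converted reads. These numbers stand at 1756 and 1440 gene reads, so as a share of gene reads the RBFOX2 sum was slightly the lower. The 2 positions of equal number were also lower as shares, at 0.399% against 0.486% and at 0.228% against 0.278%. At the 8 shared positions of MRFAP1 the sums were 32 and 31, or 24.3 and 24.2 per 1000. The shared positions of MRFAP1 thus carried 1 converted read more in one library than in the other.

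In MORF4L2 the most edited position was X:103676228, with 15 converted reads in the RBFOX2 library, 0.914% of the gene's reads (0.512 to 1.50). It was not listed in the enzyme-only library, where at most 3 converted reads could have gone unlisted. It lies 28 nt 3′ of the coding hexamer and is the first capital cytosine of the third sequence above. The next 4 capitals, at 103676225, 103676222, 103676220 and 103676218, had 4, 10, 5 and 6 converted reads and were also unlisted in the enzyme-only library. These 5 cytosines, 28 to 38 nt from the hexamer, were all the MORF4L2 sites within 50 nt of it.

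They made up 16.7% (5.64 to 34.7) of the 30 RBFOX2 sites of MORF4L2, where 3.84% of the 808 exonic cytosines of the gene lie as near to UGCAUG. Over all loci the share was 9.55% of RBFOX2 sites and 2.67% of enzyme-only sites with at least 4 converted reads, against 2.48% of exonic cytosines. No MORF4L2 site lay within 20 nt of the hexamer. The cytosine of the hexamer itself was not listed. MORF4L1 has no exonic UGCAUG in its models, and 0 of its 28 RBFOX2 sites (0%, 0 to 12.3) lay within 50 nt of a UGCAUG on the genome, where 4.42% of its exonic cytosines lie. In MRFAP1 no exonic cytosine lay within 50 nt of it. The other 25 sites of MORF4L2 and all sites of MORF4L1 and MRFAP1 were thus farther from UGCAUG than this window.

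**Figure D3:**
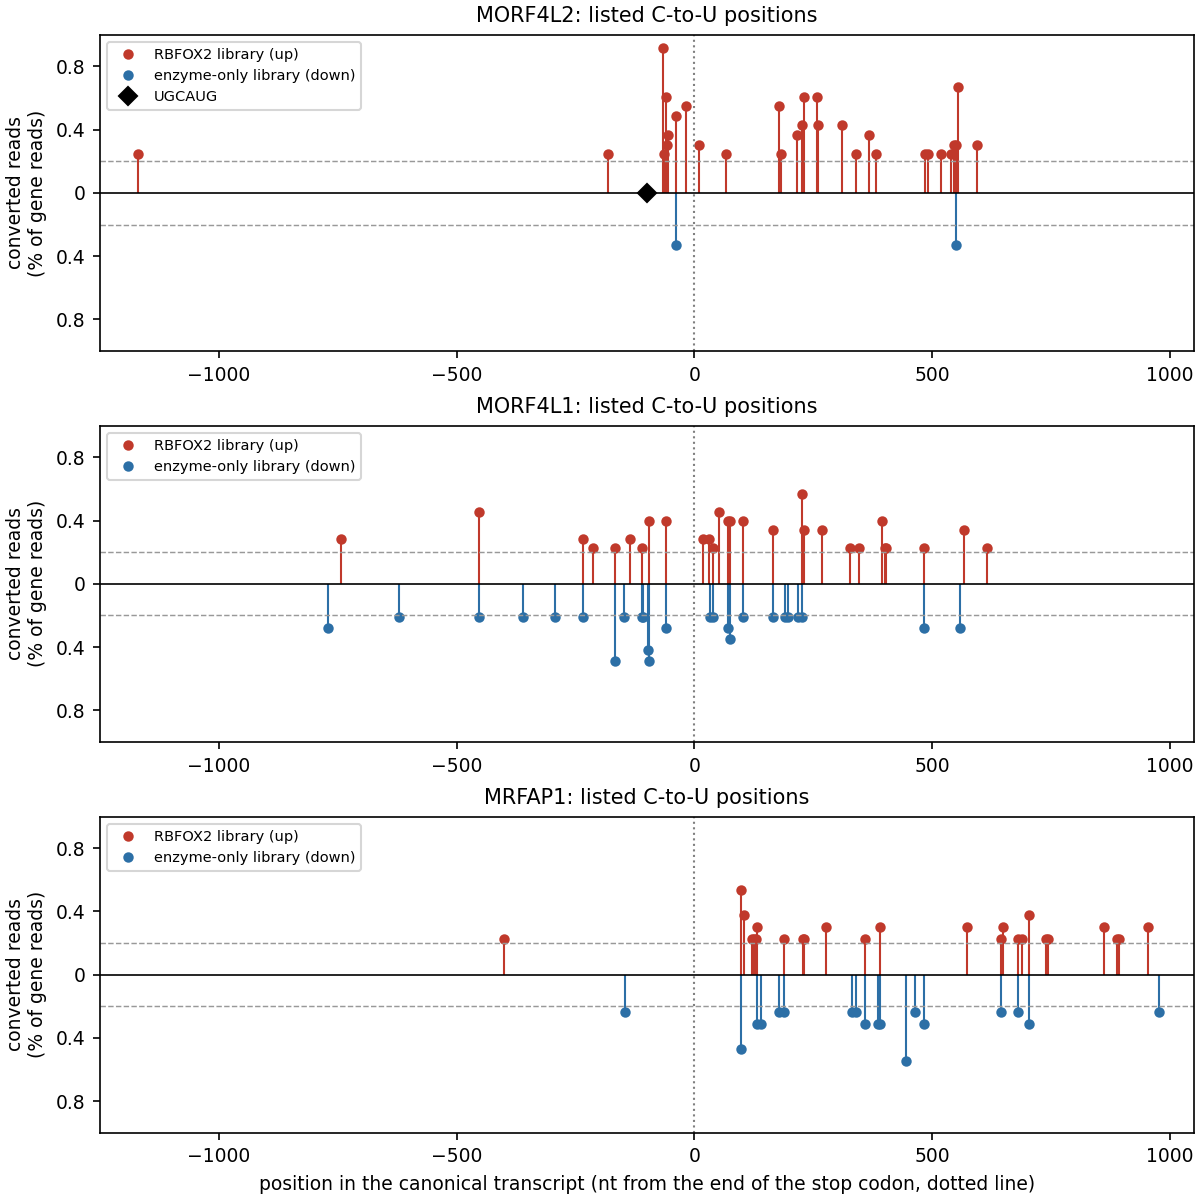
All listed positions of MORF4L2, MORF4L1 and MRFAP1 along the canonical transcript (horizontal axis, nt from the end of the stop codon, dotted line), with converted reads as a percentage of the gene's reads upward for the RBFOX2 library and downward for the enzyme-only library. Dashed lines mark the 0.2% listing limit and the diamond the coding UGCAUG of MORF4L2: its RBFOX2 positions cluster just 3′ of the diamond and along the 3′UTR with 2 enzyme-only positions below them, whereas positions of both libraries run along MORF4L1 and MRFAP1.

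The edits of MORF4L2 ran on through its 3′UTR. At X:103675607 there were 11 converted reads in the RBFOX2 library, 0.670% of the gene's reads (0.335 to 1.20), and 10 each at 103675931 and 103675904, none of them listed in the enzyme-only library. The 2 sites found in both libraries were 103676200 in the coding sequence, with 8 and 5 converted reads, and 103675611 in the 3′UTR, with 5 and 5. At 103675611 the shares were 0.305% (0.0989 to 0.709) and 0.330% (0.107 to 0.769), so the libraries did not differ detectably there. A single MORF4L2 site lay in the 5′UTR, at 103686668, with 4 converted reads.

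Around the site at 103675607 lies a GCACG, a variant of the RBFOX pentamer, which was singled out after the values had been seen. The pentamer is at X:103675614-103675618 in all 20 models, and MORF4L1 has an aligned copy at 15:78897622-78897626 in 16 of its 32 models. Within 50 nt of it lay 6 of the 30 MORF4L2 sites in the RBFOX2 library, with an interval of 7.71% to 38.6%, and 1 of the 28 MORF4L1 sites, 3.57% (0.0904 to 18.3). Of all exonic cytosines of these genes 3.47% and 2.43% lie as near to a GCACG. In the enzyme-only library 1 of 2 MORF4L2 sites and 1 of 9 MORF4L1 sites, 11.1% (0.281 to 48.2), lay as near. Over all loci it was 2.34% of RBFOX2 and 3.51% of enzyme-only sites with at least 4 converted reads, against 4.95% of exonic cytosines. An aligned cytosine of the pentamer was listed in MORF4L2, at 103675615, in the RBFOX2 library alone with 5 converted reads. Its MORF4L1 counterpart, at 78897625, was listed in the enzyme-only library alone with 4. The pair of sequences below starts at the base after the first G of the pentamer in both genes, with the cytosines listed in either library in capitals.

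MORF4L2 around position 103675607, chrX:103675597-103675617, minus strand: caCgttCtaaCatgatagagg

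MORF4L1 around position 78897633, chr15:78897623-78897643, plus strand: caCgttttaaCatgatagacg

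The canonical transcripts of MORF4L2 and MORF4L1 were alike enough to be compared base by base. Over 1461 aligned columns they were 84.7% identical, 86.1% over the 634 columns of the 3′UTR and 83.7% over the 827 columns before it. The alignment holds 205 pairs of cytosines. In the RBFOX2 library 18 of these were listed in MORF4L2 and 18 in MORF4L1, and 4 were listed in both, 22.2% of each set. The enzyme-only library listed 0 of them in MORF4L2 and 17 in MORF4L1, 5 of which had the 4 converted reads that MORF4L2 needed for a listing. The paralogues thus had equal numbers of listed aligned cytosines with the antibody, mostly at different places, and at an equal minimum of 4 they had 0 and 5 without it. The study's methods kept primary alignments only, which places each read at 1 of the paralogues.

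One of the 4 pairs was the MORF4L2 site at 103675607 with 11 converted reads, aligned with MORF4L1 78897633 with 6. Another was MORF4L2 103675904 with 10, aligned with MORF4L1 78897335 with 6. None of these 4 positions was listed in the enzyme-only library. The third pair was MORF4L2 103676222 with 10 converted reads, one of the 5 cytosines 3′ of the hexamer, and MORF4L1 78897006 with 7, which was also listed in the enzyme-only library with 4. The pairs at 103675904 and at 103676222 are printed with listed cytosines in capitals.

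MORF4L2 around position 103675904, chrX:103675894-103675914, minus strand: gcctagttgaCaaCattgctt

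MORF4L1 around position 78897335, chr15:78897325-78897345, plus strand: gcctagttgaCaaagctgctt

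MORF4L2 around position 103676222, chrX:103676212-103676232, minus strand: aattCtgCatCtCtCtttact

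MORF4L1 around position 78897006, chr15:78896996-78897016, plus strand: aattctgcaaCtttgttcagt

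The fourth pair was MORF4L2 103675946 with 6 converted reads and MORF4L1 78897293 with 10, the most edited position of MORF4L1. Around 103676222 MORF4L2 carried 5 listed cytosines in the RBFOX2 library and MORF4L1 carried 1. The MORF4L2 position with the most converted reads, 103676228 with 15, aligned with the MORF4L1 cytosine at 78897000, which was listed in neither library. In the other direction, the MORF4L1 counterpart of the hexamer was itself edited: its cytosine at 78894893, the base of the substitution T5C, had 7 converted reads in each library, 0.399% (0.160 to 0.820) of the gene's reads with the antibody and 0.486% (0.196 to 0.999) without it. Its other cytosine, at 78894891, had 6 converted reads in the enzyme-only library and was not listed in the RBFOX2 library, and the MORF4L2 cytosine aligned with it, in the UGCAUG, was listed in neither.

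**Figure D4:**
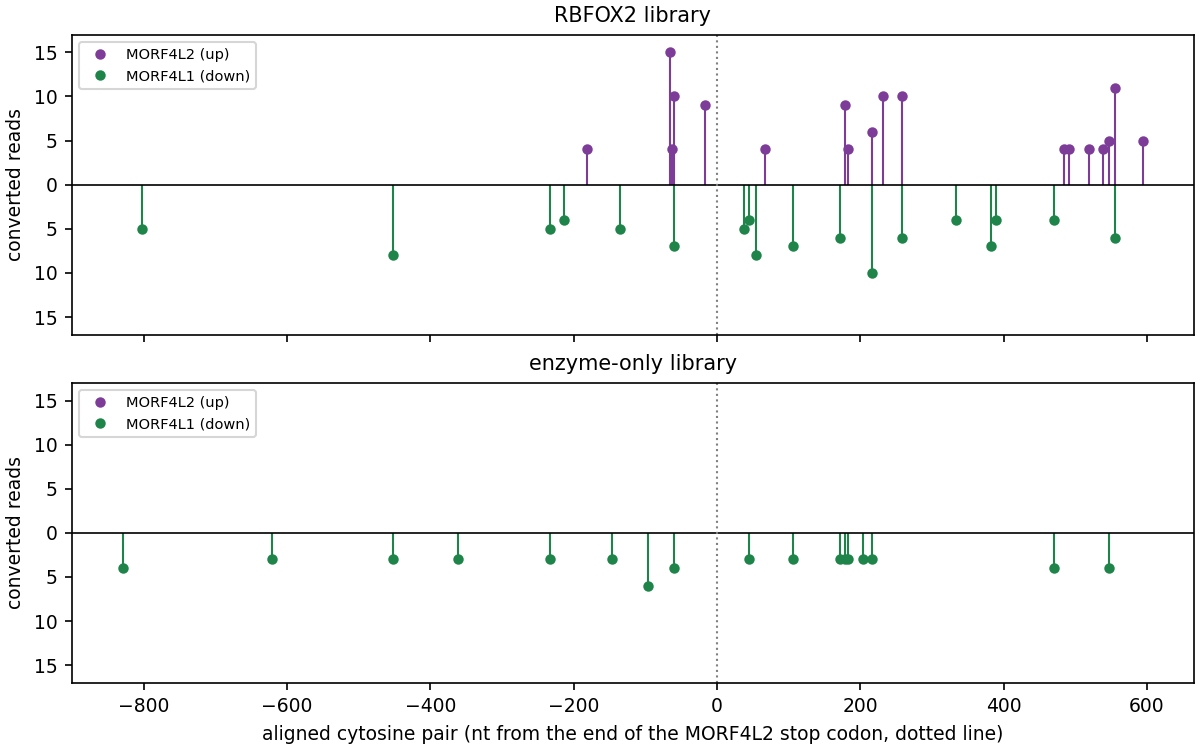
Converted reads (vertical axis) at aligned pairs of cytosines of MORF4L2 (up) and MORF4L1 (down), placed by their distance in nt from the end of the MORF4L2 stop codon, in the RBFOX2 library (upper panel) and the enzyme-only library (lower panel), for all listed positions. Each gene has 18 listed cytosines in the upper panel, 4 of them paired, while the lower panel holds 17 of MORF4L1, 5 of them with at least 4 converted reads, and none of MORF4L2.

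MORF4L1 itself was most edited in the RBFOX2 library at 15:78897293 in its 3′UTR, with 10 converted reads, 0.569% (0.273 to 1.04), against 3 in the enzyme-only library, 0.208% (0.0430 to 0.608). In the enzyme-only library its highest positions were 78894822 and 78894893, each with 7 converted reads, where the RBFOX2 library had 4 and 7. The RBFOX2 library had more converted reads at the first of these positions and no more at the other two. MRFAP1 was most edited in the RBFOX2 library at 4:6641814, with 7 converted reads, 0.532% (0.214 to 1.09), against 6 in the enzyme-only library, 0.468% (0.172 to 1.02). Its highest enzyme-only position, 6642162 with 7 converted reads, 0.546% (0.220 to 1.12), was not listed in the RBFOX2 library, where at most 2 could have gone unlisted. These positions are printed with listed cytosines in capitals.

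MORF4L1 around position 78897293, chr15:78897283-78897303, plus strand: CaatgatggaCaaCagaggga

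MRFAP1 around position 6641814, chr4:6641804-6641824, plus strand: tttgttttctCttttttCctg

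MRFAP1 around position 6642162, chr4:6642152-6642172, plus strand: ttctggaagaCgactccatgc

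APOBEC1 favours cytosines that follow an A or a U, and nearly all sites of the 3 genes had that base in both libraries. In the RBFOX2 library it was present at 29 of 30 sites of MORF4L2 (96.7%, 82.8 to 99.9), 27 of 28 of MORF4L1 and 24 of 25 of MRFAP1. In the enzyme-only library it was present at 2 of 2, 9 of 9 and 18 of 18 sites. Of all exonic cytosines of MORF4L2, MORF4L1 and MRFAP1, 53.5%, 49.0% and 49.7% follow an A or U. Over all loci the same base preceded 90.6% of RBFOX2 and 77.7% of enzyme-only sites with at least 4 converted reads.

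The 3′UTR held most sites of each gene in the RBFOX2 library. In MORF4L2 it held 21 of 30 sites, 70.0% (50.6 to 85.3), where 30.7% of the cytosines of the canonical transcript lie, while the coding sequence held 26.7% (12.3 to 45.9) of the sites and 50.8% of the cytosines. In MORF4L1 it held 19 of 28 RBFOX2 sites, 67.9% (47.6 to 84.1), and 4 of 9 enzyme-only sites, 44.4% (13.7 to 78.8), where 44.7% of its cytosines lie. Those intervals overlap, so a difference between the libraries was not detectable at this number of sites. In MRFAP1 the 3′UTR held 24 of 25 RBFOX2 sites, 96.0% (79.6 to 99.9), and 17 of 18 enzyme-only sites, 94.4% (72.7 to 99.9), with 57.2% of the cytosines. Over all loci with at least 4 converted reads the shares were 64.4% and 51.9%.

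Coding changes followed from these places. Read in the canonical frame, the 8 coding sites of MORF4L2 in the RBFOX2 library gave 4 synonymous and 4 missense codons and 0 stop codons. In MORF4L1 they gave 3 synonymous and 4 missense codons and 2 stop codons, the latter at 78886214, with 5 converted reads in the RBFOX2 library alone, and at 78894822, with 4 and 7. MRFAP1 had no coding site in the RBFOX2 library, a share of 0% (0 to 13.7), and 1 synonymous site in the enzyme-only library. Each of these edits was present in under 1% of the gene's reads.

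The isoform models end at different places in MORF4L1 and MRFAP1 and at 1 place in MORF4L2, which allowed the sites to be set against the length of the 3′UTR. All 20 MORF4L2 models end 657 to 662 nt after the stop codon. In MORF4L1, 11 models end at 164 to 196 nt, 1 at 346, 1 at 468 and 16 at 664 nt, and the remaining 3 of 32 end upstream of the stop codon. Beyond 196 nt, in the part present only in the longer models, MORF4L1 had 11 sites with the antibody and 2 without it, or 4 listed positions without the common minimum. From the stop codon to 196 nt it had 8 sites and 2, or 8 listed in each library without the common minimum. In the last 200 nt up to the end of the stop codon there were 5 sites and 4, or 5 and 7 listed. More than 200 nt before the end of the stop codon the numbers were 4 and 1, or 4 and 6 listed, among 162 cytosines. At the common minimum MORF4L1 had more RBFOX2 than enzyme-only sites in each of these segments. A listing took 3 converted reads in the enzyme-only library and 4 in the RBFOX2 library. Counted as listed positions, RBFOX2 positions were fewer in both segments before the end of the stop codon. They were equal in number in the first part of the 3′UTR and more in the distal part. The direction before the end of the stop codon thus rests on the minimum. The difference between these segments was not tested.

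In MRFAP1, 3 models end at 733 nt and 3 at 1008 or 1009 nt after the stop codon. The segment up to 733 nt had 18 RBFOX2 and 16 enzyme-only sites among 130 cytosines, and the distal segment had 6 and 1 among 48. The tables give no reads per isoform, which leaves the depth of the distal segments unknown in both libraries, and a shift between short and long 3′UTRs cannot be told apart from editing there.

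The study summarises the editing of an isoform as editsC, its edited cytosines divided by all cytosines of its exons. For the 20 models of MORF4L2 the median editsC was 7.82% (range 5.62 to 9.26) with the antibody and 0.532% (0.375 to 0.617) without it. For the 32 models of MORF4L1 it was 9.18% (0.833 to 18.9) and 3.22% (0.833 to 9.43), higher in the RBFOX2 library for 29 and equal for 3. Without the common minimum its medians were 9.18% and 9.07%, with 17 models higher in the RBFOX2 library, 5 equal and 10 lower, so the direction over the MORF4L1 models rests on that minimum. For the 6 models of MRFAP1 it was 8.33% (7.22 to 23.1) and 6.76% (5.79 to 11.5), higher in the RBFOX2 library for 6. Models of a gene share their sites and the gene's reads, so these counts repeat the comparison of sites and are not independent.

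The genes that work with these proteins were read from lists of complexes and relatives. Of the 5 relatives, MRFAP1L1 alone had at least 10 sites. It had 51 sites in the RBFOX2 library at 474 reads and 54 in the enzyme-only library at 403 reads, with a minimum of 1 converted read, and a log2 ratio of −0.18 (−0.77 to 0.40). MSL3, a chromodomain protein of the MRG family, had 1 listed position with the antibody and 3 without it. Its pseudogene MSL3P1 had 1 in the enzyme-only library, and MORF4 and the pseudogene MORF4L1P1 were listed in neither library. MRFAP1 and MRFAP1L1 aligned over 1043 columns at 78.6% identity, 88.8% before the end of the stop codon and 72.1% in the 3′UTR. Of 144 aligned cytosine pairs, 17 were listed in MRFAP1 in either library and 43 in MRFAP1L1, and 11 pairs were listed in both genes, 64.7% and 25.6% of each set. That number pools the libraries. Within the RBFOX2 library 5 pairs were listed in both genes, of 12 in MRFAP1 and 26 in MRFAP1L1. In the enzyme-only library it was 5, of 10 and 26. Pooled in the same way, MORF4L2 and MORF4L1 shared 7 pairs, of 18 and 27. The minimum differed between these relatives, so their numbers of sites are not compared.

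Of the 16 genes of the TIP60/NuA4 list, 14 were listed in both libraries and 11 had at least 10 sites. Their median log2 ratio was 0.36, beside 0.25 over all genes with that number of sites. ING3, a reader of methylated histone H3, was the 1 gene over 2-fold, with 19 and 4 sites and a log2 ratio of 2.01 (0.56 to 4.16). DMAP1, which binds DNA methyltransferase DNMT1, was the 1 gene under 0.5, with 10 and 29 sites and −1.59 (−2.84 to −0.56). Over all genes 20.5% were over 2-fold and 10.2% under 0.5. The catalytic subunit KAT5 had 31 and 20 sites and a log2 ratio of 0.52, MEAF6 had 67 and 37 (0.75, 0.15 to 1.38) and VPS72 had 41 and 26 (0.55).

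Of the 17 genes of the SIN3 list, 12 were listed in both libraries and 10 had at least 10 sites, with a median log2 ratio of 0.40. The 4 genes over 2-fold were the deacetylase HDAC2 (33 and 7 sites, 2.06, 0.93 to 3.56), the histone-binding protein RBBP7 (39 and 12, 1.56, 0.64 to 2.67), the demethylase KDM5A (12 and 4, 1.37, −0.24 to 3.57) and ING2 (10 and 4, 1.12, −0.57 to 3.35). None was under 0.5. HDAC2 and RBBP7 belong to the deeper classes, with minima of 3 and 2 converted reads, where 47% and 31.4% of genes were over 2-fold and 4% and 4.02% under 0.5. Without the common minimum HDAC2 had 33 and 36 listed positions, so its surplus of sites depends on that minimum. The enzyme-only library, at 913 reads against 1036, could list positions below it. Summed over positions listed in either library, the converted reads of HDAC2 lay between 124 and 164 per 1000 gene reads with the antibody. Without it they lay between 89.8 and 110. Such ranges did not overlap, with the RBFOX2 library higher, in 45.6% of the 518 genes of at least 500 reads. For KDM5A and ING2 the interval included 0. Of the 7 other partners, 6 had at least 10 sites with a median of 0.84, and BRCA2 (18 and 7 sites, 1.20, −0.07 to 2.76) and RB1 (13 and 5, 1.19, −0.30 to 3.12) were over 2-fold with intervals that included 0. KDM5A, ING2, BRCA2 and RB1 have a minimum of 1 converted read. Among genes with that minimum 18.6% were over 2-fold and 10.9% under 0.5.

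**Figure D5:**
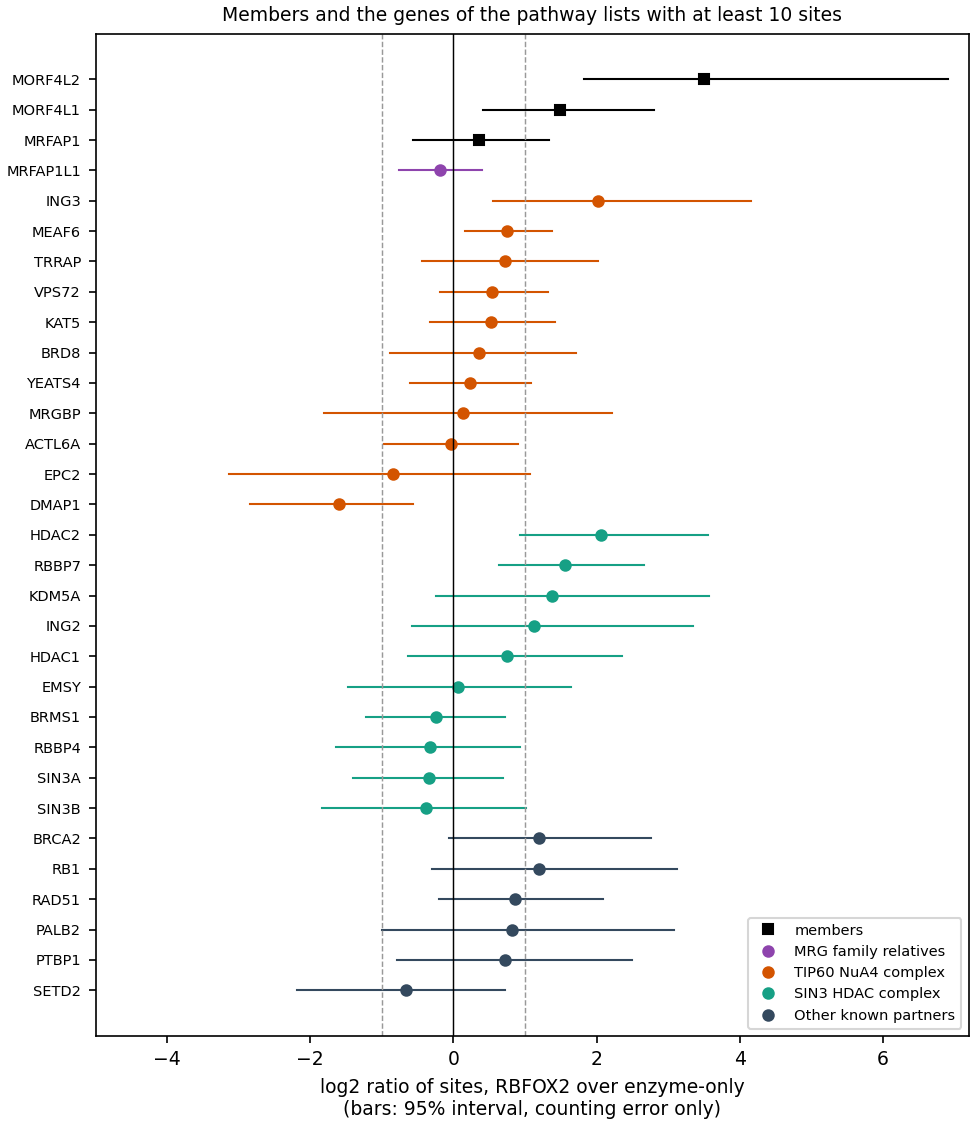
Log2 ratio of sites in the RBFOX2 library over the enzyme-only library (horizontal axis, bars are 95% intervals for counting error) for MORF4L2, MORF4L1, MRFAP1 and the genes of the 4 lists with at least 10 sites. Dashed lines mark 2-fold: MORF4L2, chosen by this surplus, lies at 3.51, to the right of every listed partner. HDAC2 at 2.06 (33 and 36 positions without the common minimum) and ING3 at 2.01 are the highest partners, and DMAP1 at −1.59 is the lowest. Minima differ: the median log2 ratio was 1.25 among genes with the minimum of 4 of MORF4L2. It was 0.19 among genes with the minimum of 1 that most partners have.

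The libraries as a whole were of similar depth. They listed 122035 and 103776 positions in the RBFOX2 and enzyme-only libraries, and the median reads of the loci listed in both were 127 and 115. Of a list of 7 genes known from HEK293T cells, 7 were listed in either library and 4 in both, and of 5 genes of blood, liver, fibroblasts and tubule 0 were listed. A gene without an edited position does not appear in these tables, so an absent gene is not shown to be silent.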

How the data were processed

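Full-length cDNA of 2 HEK293T libraries, 1 per group (RBFOX2 and enzyme-only, by the descriptions in the labels), was read on the PacBio platform. The study's methods give alignment to hg38 with pbmm2 and edit calling with the authors' own code. They also describe removing likely SNPs, called as edits seen in every sample, and then SNPs annotated in dbSNP. They name another library kit than the labels, so the tables may come from another run. Whether that SNP filter was applied here is therefore not known. It would act on positions edited in both libraries, so the numbers of shared positions may be affected. For each position the deposited tables hold a count of converted reads, a count of reads of the gene and an edit fraction, which is their quotient. A deposited confidence score was not used. The deposited isoform models carry no expression values.

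Loci received GENCODE 44 symbols by the largest overlap of same-strand exons (bedtools 2.31.1, pysam 0.24.0). The base at every listed position was checked to be a cytosine on its strand in hg38. The genes, lists and rules were chosen with earlier results of these data known. Ratios are log2 of (sites + 0.5), scaled by the summed reads of the loci listed in both libraries (1.07 times as many in the RBFOX2 library). Their intervals, and those of shares, are exact Clopper-Pearson 95% intervals (scipy 1.17.1). No p-value was computed. Canonical transcripts were aligned with biopython 1.88 (match 1, mismatch −1, gap opening −3, extension −0.5). Motifs were searched on the strand of the gene within 50 nt on the genome. Genes named were MORF4L1, MORF4L2, MRFAP1, every gene of the pathway lists past 2-fold, up to 3 others with the most sites, and the 5 nearest genes of each of the 3, of which some are not reported here. The relatives with few sites are named outside that rule. The calculation of ratios was tested on simulated data. Alternatives covered the minimum, shared positions, scaling, pseudocount, motif window, region order and the number of sites required of a gene.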

Additional observations from a re-analysis of the deposited data

How the results depend on the processing

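No paired analysis was possible because each group had 1 library and the replicate numbers in the labels pair none. For the same reason no library could be left out. Of 74 recomputed values 62 stayed within their counting interval (counts within 1.5 times) and 12 moved. Some of the 62 could not move. For MORF4L2 and MRFAP1 in both libraries, and for MORF4L1 in the RBFOX2 library, the common minimum was the smallest number that could be listed. Leaving it out there returned the same sites, so the tally is no measure of stability. The ratio of MRFAP1, whose interval included 0, changed sign under 1 setting. Without a common minimum, the log2 ratio of sites of MORF4L1 was 0.059, its enzyme-only editsC in the isoform with the most cytosines was 7.04% in place of 2.54%, and its enzyme-only converted reads were 64.6 per 1000 gene reads, which follows from the 16 positions with 3 converted reads. With the minimum as a share of gene reads (chosen after seeing the data), the log2 ratio of MRFAP1 was −0.92, since 10 RBFOX2 sites with at least 4 converted reads then stood against 18 enzyme-only sites with at least 3; it was 0.86 for MORF4L1, with an interval that included 0, and 2.86 for MORF4L2. With at least 20 sites per gene, 684 genes were over 2-fold and 262 under 0.5, in place of 1141 and 564, from fewer genes tested. A window of 20 nt left 0% of the MORF4L2 sites near UGCAUG. Leaving out positions listed in both libraries gave, in converted reads per 1000 gene reads, 43.8 (RBFOX2) and 9.72 (enzyme-only) for MORF4L1, 0 (enzyme-only) for MORF4L2, and 44.1 and 28.9 for MRFAP1. The shallow numbers of converted reads, 3 to 15 per site, limit any statement about a single position.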
